A study of Mus musculus with 6 samples.

Results

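The genes described here are 9 mouse genes that encode proteases and receptor chains of mast cells, namely the tryptase genes Tpsb2 and Tpsab1, the chymase genes Cma1, Mcpt4, Mcpt1 and Mcpt2, the carboxypeptidase gene Cpa3, and the IgE receptor genes Fcer1a and Ms4a2. They were taken by name from the 24063 gene symbols in the count files, and the set was chosen by the counts of Tpsb2 and Cma1, which rose from almost no reads after pneumonectomy (PNX), the surgical removal of lung tissue that is followed by compensatory growth of the lobes that remain. The difference between PNX and sham is therefore given for these genes as a description, and thresholds that they pass in it do not count as a test. All 9 genes had reads in at least 1 library, and 7 of them passed the filter on low counts, which left out Mcpt1 and Mcpt2.

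RNA was sequenced from lung endothelial cells (ECs) of male C57BL6 mice, 8 weeks old according to the labels (the study's methods give an older age for its mice), either sham operated or 7 days after PNX. No allele or drug was named for either group. ECs were captured with magnetic beads against CD31, a surface protein of ECs, and each of the 3 libraries per group was pooled from 2 mice, so single animals cannot be seen. The study's methods did not report every isolated cell as CD31-positive, and markers of epithelial cells, fibroblasts and immune cells had reads as well. Replicates 1 and 2 of each group were marked in their titles as re-used, and replicate 3 was not. The re-used libraries are called the earlier deposit here and the others the later deposit, names that the titles do not give. Total counts ran from 29526989 to 81282871 per library. Counts of replicates 1 and 2 differed by little more than sampling noise (chi-square per degree of freedom 1.75 in sham and 1.57 in PNX, against 67.9 to 86.4 for each of them against replicate 3), so their counts were summed, which left 2 samples per group. Nothing in the labels says that replicates 1 and 2 came from separate cell preparations, and the spread between samples may in part be technical. None of the 8 EC markers examined was called for a change, with or without a block for the deposit. The same held with 6 separate libraries and by DESeq2. The summed level of these markers was 4670 to 5483 CPM in sham and 4422 to 4779 CPM in PNX. CPM are counts scaled to the library's total count, adjusted by the TMM method.

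Mast cells are tissue-resident immune cells that pack proteases into granules on a core of heparin and release them when IgE bound to its high-affinity receptor is cross-linked by antigen. Tryptases cut after basic residues, many but not all chymases cut after aromatic residues, and carboxypeptidase A3 trims the ends of peptides. In mice, mast cells of connective tissue are known for the proteases of Tpsb2, Cma1, Mcpt4 and Cpa3, and mast cells of mucosal surfaces for those of Mcpt1 and Mcpt2. Fcer1a encodes the IgE-binding alpha chain of the receptor and Ms4a2 the signal-amplifying beta chain, and both are also expressed by basophils.

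The genes lie in 5 places in the genome (GRCm38, the assembly also called mm10). The tryptase genes are close neighbours on opposite strands, with Tpsab1 at chr17:25343245-25345562 on the minus strand and Tpsb2 at chr17:25366305-25369098 on the plus strand. The 4 chymase genes share a cluster of related serine proteases, with Cma1 at chr14:55941451-55944675, Mcpt1 at chr14:56017971-56020384, Mcpt2 at chr14:56042041-56044642 and Mcpt4 at chr14:56059629-56062313. Cpa3 lies at chr3:20215620-20242181, where the microRNA gene Mir7007 overlaps it, Fcer1a at chr1:173221284-173227214 and Ms4a2 at chr19:11615523-11623719. Transcripts of the tryptase genes were 64.6% identical over the alignment, those of Mcpt4 and Mcpt1 72.9%, and those of Cma1 and the other 3 chymase genes 55.1% to 60.1%. No stretch of 50 bases was shared between any pair of the 9 genes, so reads of this length could be told apart among them. Mcpt4 shared 5.48% of such stretches with Cma2 and Mcpt9, both at 0 counts in all 6 libraries, and Cma1 shared 5.46% with the predicted gene Gm48934. Tpsab1 is typed as a transcribed pseudogene in the RefSeq table of this assembly, and C57BL/6 mice are known to carry a splice-site change in this gene that prevents its protein from being made.

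Promoter sequences were matched for 6 of the 9 genes in RefSeq (GRCm38.p6). The 250 bases before the start of transcription are printed for 4 of them, the chymase genes Cma1, Mcpt4 and Mcpt1 because they differed in their values, and Ms4a2 because it held more than 1 copy of the motif. Capitals mark GATAA, the core of the site bound by GATA factors such as Gata2 of mast cells, or TTATC, the same motif on the other strand.
Cma1, chr14:55944676-55944925, minus strand: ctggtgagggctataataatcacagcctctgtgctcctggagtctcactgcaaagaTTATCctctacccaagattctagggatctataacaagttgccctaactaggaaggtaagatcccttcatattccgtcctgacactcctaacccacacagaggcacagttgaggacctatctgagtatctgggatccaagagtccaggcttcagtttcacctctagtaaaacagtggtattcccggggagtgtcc
Mcpt4, chr14:56062311-56062560, minus strand: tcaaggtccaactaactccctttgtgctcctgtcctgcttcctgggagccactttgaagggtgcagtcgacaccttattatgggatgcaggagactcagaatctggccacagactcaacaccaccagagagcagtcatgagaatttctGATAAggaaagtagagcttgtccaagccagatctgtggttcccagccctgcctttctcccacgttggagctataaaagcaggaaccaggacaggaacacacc
Mcpt1, chr14:56017714-56017963, plus strand: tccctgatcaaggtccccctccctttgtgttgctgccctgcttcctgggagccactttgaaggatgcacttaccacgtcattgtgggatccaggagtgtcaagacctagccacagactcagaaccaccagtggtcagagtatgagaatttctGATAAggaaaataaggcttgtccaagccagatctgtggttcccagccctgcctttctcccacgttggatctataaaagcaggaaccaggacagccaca
Ms4a2, chr19:11623720-11623969, minus strand: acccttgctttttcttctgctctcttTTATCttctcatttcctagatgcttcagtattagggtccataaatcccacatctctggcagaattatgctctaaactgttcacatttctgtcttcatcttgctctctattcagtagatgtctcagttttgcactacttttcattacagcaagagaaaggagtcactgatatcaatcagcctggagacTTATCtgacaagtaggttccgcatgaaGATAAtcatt

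GATAA on either strand stood in 6 of 6 of these promoters, against 22.6% of all 32851 promoters of the same length. Cma1, Mcpt4, Mcpt1, Cpa3 and Fcer1a held 1 copy each, and Ms4a2 held 3. Measured from the start of transcription, the first base of the copy lay at -45 in Cpa3, -92 in Fcer1a, -98 in Mcpt1, -102 in Mcpt4 and -194 in Cma1. The promoters of Mcpt4 and Mcpt1 were 81.0% identical over the alignment, whereas the other pairs were 43.5% to 49.3% identical. CANNTG, the E-box bound by factors such as Mitf, stood in 3 of 6 on either strand, against 66.2% of all promoters. Its form CATGTG stood in 1 promoter, that of Fcer1a, against 12.3% of all. CACGTG, another form of the E-box, was in 0 of the 6 against 6.02% of all. The AP-1 motif TGACTCA was in 0 of the 6 against 4.46%, and the ETS motif GGAAGT in 0 of the 6 against 19.7%, again on either strand. A match is a run of letters and was not tested as a binding site.

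**Figure D1:**
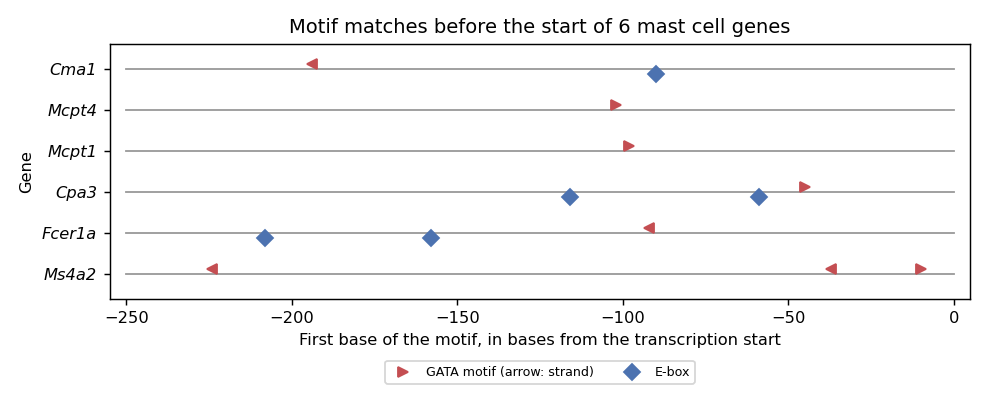
Positions of GATAA and of the E-box CANNTG in the 6 promoters, as distance in bases from the start of transcription (x axis), with 1 line per gene (y axis). Every line carries at least 1 GATAA mark, and Ms4a2 carries 3.

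Both tryptase genes were higher in PNX. Tpsb2, which encodes the main tryptase of mouse mast cell granules, had 4, 2 and 6 counts in sham replicates 1, 2 and 3 and 153, 167 and 156 counts in PNX replicates 1, 2 and 3. Every PNX library was far above every sham library, and the sham libraries were close to the limit of detection. The mean level was 0.108 ± 0.0967 CPM in sham and 3.78 ± 2.13 CPM in PNX (SD, n = 2 samples each). The ratio of PNX to sham used counts pooled over the libraries of each group and divided by their TMM-adjusted totals. It was 43.5 (exact 95% interval 24.6 to 84.7), with 58.0 in the earlier deposit and 29.4 in the later one. Such intervals cover counting error only. Tpsab1 had 0, 2 and 1 counts in sham and 14, 14 and 14 in PNX for its transcript NM_031187, and its second transcript, NR_033521, carried almost the same counts. The groups did not overlap, but 3 sham counts in all left the ratio of 15.3 with a wide interval of 4.90 to 77.3.

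Among the chymase genes, the connective tissue members were higher in PNX and the mucosal members stayed at a few counts. Cma1, which encodes the alpha-chymase, had 31, 30 and 13 counts in sham and 321, 249 and 191 in PNX. All 3 PNX libraries lay above all 3 sham libraries, and the means were 0.394 ± 0.0164 CPM and 5.26 ± 1.71 CPM (SD, n = 2 each). The ratio was 11.3 (8.86 to 14.5), with 10.2 in the earlier deposit and 16.6 in the later one. Mcpt4, which encodes a beta-chymase with chymase activity toward angiotensin and fibronectin, had 20, 21 and 17 counts in sham and 93, 82 and 114 in PNX. The groups again did not overlap (0.387 ± 0.161 CPM against 2.55 ± 1.85 CPM, SD, n = 2 each), and the ratio was 5.46 (4.10 to 7.37), with 4.64 and 7.57 in the earlier and later deposits.

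The mucosal chymase genes were near the floor of detection in both groups. Mcpt1 had 4, 5 and 1 counts in sham and 1, 3 and 1 in PNX, and its libraries overlapped. Its ratio of 0.548 had an interval of 0.147 to 1.76, so counting error alone spans both directions. Mcpt2 had 1, 0 and 0 counts in sham and 2, 7 and 1 in PNX. The PNX libraries lay above the sham libraries in CPM, and 7 of the 10 PNX counts came from replicate 2. The ratio of 11.0 rested on 1 sham count and had an interval of 1.56 to 475.

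Cpa3 was the protease gene with the most reads in sham. It had 257, 246 and 147 counts in sham and 383, 334 and 274 in PNX, or 3.84 ± 0.693 CPM against 7.19 ± 2.96 CPM (SD, n = 2 each). The groups did not overlap. The ratio of 1.67 (1.51 to 1.85) was far smaller than that of Tpsb2 or Cma1, and it was 1.55 in the earlier deposit and 2.10 in the later one.

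The receptor genes differed less between the groups than Tpsb2, Cma1 or Mcpt4, and Ms4a2 was lower in PNX. Fcer1a had 34, 19 and 49 counts in sham and 50, 32 and 37 in PNX. Its libraries overlapped, since replicate 3 had the highest CPM in each group, and the means were 0.898 ± 0.771 CPM and 0.918 ± 0.474 CPM (SD, n = 2 each). The ratio was 1.28 (0.973 to 1.68) over all libraries, 1.68 (1.18 to 2.43) in the earlier deposit and 0.852 (0.541 to 1.33) in the later one. Ms4a2 had 66, 59 and 58 counts in sham and 38, 32 and 30 in PNX for its transcript NM_013516, and the other transcripts listed for it carried almost the same counts. The means were 1.27 ± 0.619 CPM and 0.757 ± 0.367 CPM (SD, n = 2 each), the libraries overlapped when the deposits were mixed, and the ratio of 0.599 (0.464 to 0.768) was nearly the same in the earlier deposit, 0.609, and the later one, 0.584. In RNA from bulk samples, fewer cells of a type and less RNA per cell cannot be told apart.

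**Figure D2:**
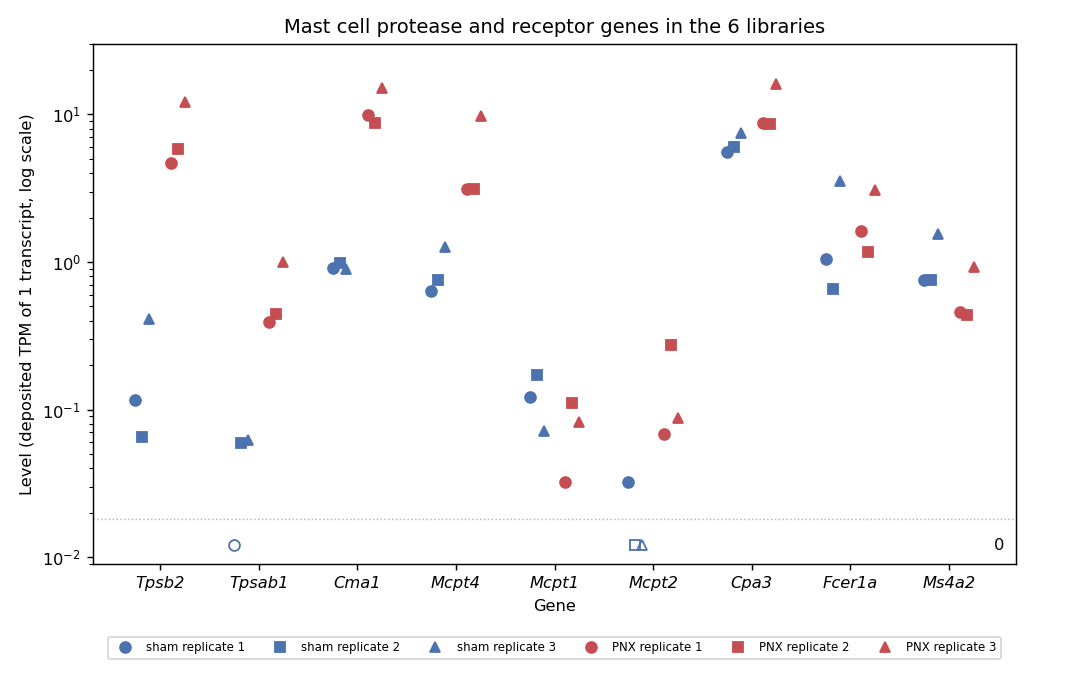
Level of the 9 genes (x axis) as deposited TPM (scaled for transcript length and depth, log scale, y axis), 1 point per library, sham in blue and PNX in red, with libraries at 0 drawn as open points at the bottom. Tpsb2 lies between 0.0649 and 0.408 TPM in sham and between 4.68 and 12.2 TPM in PNX, while Fcer1a and Ms4a2 overlap between the groups.

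All 3 PNX libraries lay above all 3 sham libraries in 5 of the 7 genes tested, against 18.8% of the 16598 genes that passed the filter, and in 0 of the 7 did all PNX libraries lie below, against 18.0% of those genes. With the deposit as a block, 4 of the 7 (Tpsb2, Tpsab1, Cma1 and Mcpt4) were past an adjusted p of 0.01 and a log2 fold change of 1, where 5.12% of all genes were called and 3.89% were called higher. With the 6 libraries as separate replicates 2 of the 7 (Tpsb2 and Cma1) were, against 2.51% of all genes called, 2.28% higher and 0.240% lower, and by DESeq2 the same 4 as with the block, against 3.45% called, 2.95% higher and 0.494% lower. On the 4 samples without the block, edgeR called no gene (0 of 16598, with 2076 at an unadjusted p under 0.05). The DESeq2 fit, also on the 4 samples without the block, called 572. The set was chosen by this contrast, so these counts, and the thresholds behind them, describe that choice. They are no evidence of a difference. Tpsb2 and Tpsab1 also passed the filter on low counts only through their PNX counts. Without the block the fitted log2 fold changes of Tpsb2, Mcpt4 and Ms4a2 were 5.55, 2.77 and -0.70, and leaving out 1 library moved them to between 4.81 and 6.51, 1.76 and 3.19, and -1.27 and -0.15.

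Read per transcript length, as deposited TPM, the order of the genes differed between the groups. In sham, Cpa3 came first with a median of 5.98 TPM (5.56 to 7.49) and did not overlap with any other. Fcer1a (median 1.04 TPM), Cma1 (0.905), Ms4a2 (0.756) and Mcpt4 (0.749) followed with overlapping ranges. Mcpt1 (0.122 TPM), Tpsb2 (0.116) and Tpsab1 (0.0593) were lower, and Mcpt2 had a median of 0. In PNX, Cma1 (median 9.93 TPM, 8.73 to 15.1), Cpa3 (8.78, 8.67 to 16.0) and Tpsb2 (5.79, 4.68 to 12.2) had overlapping ranges at the top, and Mcpt4 (3.13, 3.13 to 9.79) overlapped with all 3. Within each PNX library, however, Tpsb2 lay below both Cma1 and Cpa3, and Mcpt4 lay below Tpsb2. Fcer1a (1.62 TPM) lay below every value of Mcpt4, Ms4a2 (0.459) and Tpsab1 (0.444) overlapped with each other, and Mcpt2 (0.0876) and Mcpt1 (0.0827) came last.

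The make-up of the protease counts differed with these ratios, in shares of counts of 1 transcript per gene. Cpa3 made up 80.4% of the protease counts in sham and 38.5% in PNX. Within the chymase counts, Cma1 held 51.7% (exact 95% interval 43.2 to 60.2) in sham and 71.5% (68.6 to 74.2) in PNX, and the PNX libraries gave 77.0%, 73.0% and 62.2%. Mcpt4 held 37.1% of the chymase counts in PNX replicate 3 and 22.3% and 24.0% in PNX replicates 1 and 2. Within the tryptase counts of PNX, Tpsb2 held 91.6%, 92.3% and 91.8%, so the balance of the tryptase genes was nearly the same in every PNX library. The receptor genes made up 24.0%, 20.3% and 36.6% of the counts of the 9 genes in sham and 8.34%, 6.96% and 8.19% in PNX. With the counts of all transcripts of a gene summed, where the near-equal transcripts of Ms4a2 add up, these shares were 48.4%, 45.4% and 58.9% in sham and 17.2%, 15.5% and 17.0% in PNX.

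The deposits were compared as well, which played no part in choosing the genes. With the group as a covariate, all 7 tested genes had a higher fitted level in the later deposit, where 50.5% of all genes did. Of these, 5 passed an adjusted p of 0.05 in edgeR (14.5% of all genes were higher at that threshold), namely Fcer1a with a log2 difference of 1.56 (SE 0.34, adjusted p = 0.0161), Mcpt4 with 1.37 (SE 0.30, adjusted p = 0.0164), Tpsb2 with 1.34 (SE 0.30, adjusted p = 0.0170), Ms4a2 with 0.98 (SE 0.17, adjusted p = 0.00650) and Cpa3 with 0.63 (SE 0.17, adjusted p = 0.0361). Tpsab1 (1.25, adjusted p = 0.0858) and Cma1 (0.46, adjusted p = 0.210) did not pass in edgeR. None of the 7 passed both the adjusted p of 0.01 and the log2 difference of 1 in edgeR or in DESeq2 (edgeR gave 6 of 7 at an unadjusted p under 0.05), where 3.31% of all genes did and 2.62% were higher. With the 6 libraries as separate replicates, or with no filter on low counts, Tpsb2, Mcpt4 and Fcer1a passed both in edgeR. Without PNX replicate 1 the adjusted p in edgeR was 0.0548 for Tpsb2 and 0.0569 for Cpa3, and without sham replicate 1 it was 0.0557 for Cpa3. A rise in the later deposit was not confined to the mast cell genes. In sham, Csf1r of macrophages rose from 75.9 CPM in the earlier deposit to 212 CPM in the later one. S100a8 of neutrophils rose from 30.5 to 79.3, Cd3e of T cells from 2.81 to 8.30 and Msln of mesothelium from 31.0 to 115. Other markers were lower there, such as Kit (320 to 224) and the epithelial marker Ager (491 to 183). Whether the 7 genes differed from such markers was not tested. What else differed between the deposits cannot be told apart from the deposit.

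Genes of the mast cell pathway outside the 9 were read from lists of receptors, mediator enzymes, transcription factors and growth factors. Of 52 listed genes, 48 were tested, and 0 were called without the block in edgeR on the 4 samples (8 at an unadjusted p under 0.05, and 2 called by DESeq2). With the block, 4 of the 48 were called higher and 0 lower, against 3.89% and 1.23% of all genes. Tph1, which encodes the enzyme that starts serotonin synthesis, had 5, 2 and 5 counts in sham and 71, 78 and 52 in PNX. These and the other counts of listed genes are summed over transcripts, as in the fits, and 1 transcript of Tph1 had 5 counts in sham and 87 in PNX, a ratio of 19.1 (exact 95% interval 7.86 to 60.2). Its log2 fold change with the block was 4.11 (SE 0.41, edgeR adjusted p = 0.000733, against 0.117 without the block). Mrgprb1, a receptor gene of the family that holds the peptide receptor of connective tissue mast cells, had 0, 1 and 0 counts in sham and 20, 8 and 11 in PNX, with 5.10 (SE 0.87, edgeR adjusted p = 0.00722, against 0.126). Both had at most 5 counts in every sham library, and their PNX libraries lay above all sham libraries. They passed the filter on low counts only through their PNX counts. The lists were chosen with earlier results of these data known, so these p-values are no independent evidence.

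Hpgds, the synthase of prostaglandin D that mast cells release, had a log2 fold change of 1.30 with the block (SE 0.21, edgeR adjusted p = 0.00533, against 0.402 without it). Ccl2, a chemokine of monocytes, had 1.74 (SE 0.10, edgeR adjusted p = 4.35e-05, against 0.0738). With the 6 libraries as separate replicates Tph1 and Ccl2 were called, Hpgds was not, and Mrgprb1 did not pass the filter on low counts and was not tested. By DESeq2, Tph1 and Ccl2 were called and Mrgprb1 and Hpgds were not. Mrgprb2, the peptide receptor itself, had 2, 0 and 0 counts in sham and 5, 3 and 3 in PNX and was not tested.

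The stem cell factor receptor Kit, the gamma chain Fcer1g, the histamine-forming enzyme Hdc and the IL-33 receptor Il1rl1 were not called in any of these fits. Their log2 fold changes without the block were -0.28, 0.26, -0.28 and 0.26. Kit lay at 272 ± 68.5 CPM in sham and 224 ± 34.4 CPM in PNX (SD, n = 2 each). The transcription factors Gata2 (-0.56) and Mitf (0.27), the basophil protease Mcpt8 (-0.05), and the growth and alarm factors Kitl (-0.19) and Il33 (0.27) were not called either. In sham, the mean level was 185 CPM for Gata2 and 308 CPM for Kitl, against 3.84 CPM for Cpa3. Which of the captured cells the reads of Kit, Gata2 and Kitl came from was not tested.

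**Figure D3:**
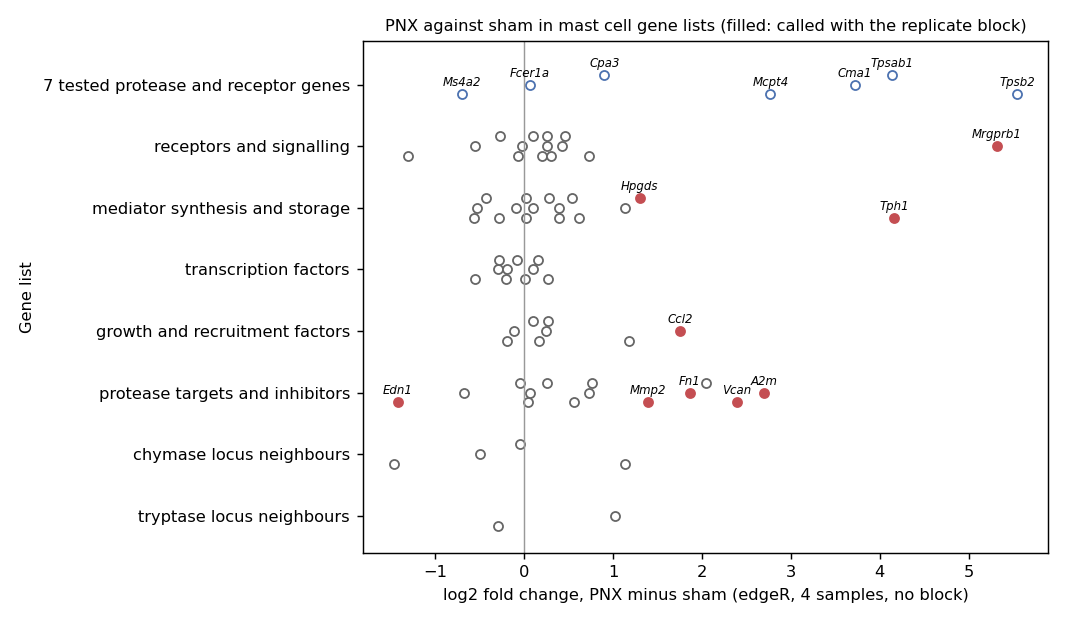
Log2 fold change of PNX against sham without the block (x axis) for the genes of each list (y axis), 1 point per tested gene. Filled points passed the thresholds with the replicate block, and the top line shows the 7 tested protease and receptor genes, from -0.70 for Ms4a2 to 5.55 for Tpsb2, without calls.

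Substrates and inhibitors of mast cell proteases were a further list. Of 14 tested genes, 0 were called without the block in edgeR on the 4 samples (8 at an unadjusted p under 0.05, and 4 called by DESeq2). With the block 4 were higher and 1 was lower, against 3.89% and 1.23% of all genes. The higher genes were the fibronectin gene Fn1 (log2 fold change 1.93), the gelatinase gene Mmp2 (1.39), the proteoglycan gene Vcan (2.45) and the protease inhibitor gene A2m (2.52). The lower gene was Edn1 (-1.50), which encodes the precursor of endothelin-1. With the 6 libraries as separate replicates only Mmp2 and Vcan of the 14 were called, and by DESeq2 the 4 higher genes were called and Edn1 was not. F2rl1, the receptor that tryptase can cleave, had a log2 fold change of -0.67 and was not called in any of these fits.

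The genes most like Tpsb2 and Cma1 over the 4 samples were found from the root mean square difference of centred log2 CPM. For Tpsb2 these were the chemokine gene Ccl8 (0.145), Bcat1 (0.326), Clca2 (0.391), Sez6l (0.392) and Ecel1 (0.462). Ccl8 had 18, 28 and 30 counts in sham and 709, 583 and 765 in PNX. For Cma1 they included Timp1 (0.0803), an inhibitor of matrix metalloproteinases, Mrgprb1 (0.128), Fcna (0.150) and Srrm4 (0.209), and Tpsab1 was at 0.379 from Cma1. With 4 samples, such likeness describes the samples and no more.

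Marker lists of other cells were read beside these values, and no marker was called without the block by edgeR on the 4 samples, whereas DESeq2 and the 6 libraries as separate replicates called some. With the block, 3.89% of all genes were called higher and 1.23% lower. The mast cell marker list without the 9 genes had 3 of 9 tested genes called higher with the block (Mrgprb1, Tph1 and Hpgds). Without the block 5 of the 9 had a log2 fold change above 0. Kit (-0.28), Hdc (-0.28), Slc18a2 (-0.54) and Gata1 (-0.30) were below 0. With the 6 libraries as separate replicates, and by DESeq2, only Tph1 of this list was called. The summed level of this list, most of it Kit, was 389 to 397 CPM in sham and 339 to 359 CPM in PNX. Kit alone had a mean of 272 CPM in sham, against 3.84 CPM for Cpa3, and the source of its reads was not tested. Mesothelial markers were called higher in 4 of 4 with the block, with 74.0 to 270 CPM in sham and 221 to 689 CPM in PNX. Of the eosinophil list 0 of 4 tested genes were called, and the sum was 3.87 to 6.03 CPM in sham and 7.56 to 14.2 CPM in PNX. Of the basophil list 0 of 5 were called, and the sum was 49.2 to 54.0 CPM in sham and 60.2 to 74.1 CPM in PNX. Fibroblast markers were called higher in 5 of 6 with the block, and the sum was 801 to 995 CPM in sham and 3018 to 4359 CPM in PNX. Macrophage markers were called higher in 3 of 6, with 281 to 592 CPM and 712 to 900 CPM, and epithelial markers were called lower in 2 of 5, with 5456 to 7161 CPM and 2075 to 3297 CPM. B cell markers had 0 of 4 called, with a median log2 fold change of -0.92 without the block, 4 of 4 at an unadjusted p under 0.05 in edgeR, and 81.3 to 96.6 CPM in sham and 45.2 to 49.7 CPM in PNX. T cell markers had 0 of 5 called, with a median of -0.80 and sums of 19.1 to 44.8 CPM and 10.7 to 30.5 CPM. No listed marker that the files held was at 0 in every library, and the part of these cells in the values of the 9 genes was not tested.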

How the data were processed

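Each library was deposited as 1 table of counts, FPKM and TPM per RefSeq transcript. The authors aligned reads to mm10 with STAR, per the submitters' processing notes. Reads were counted on the Basepair Tech platform, per the study's methods. The counting rule is not given in the sources used here, nor are versions. The deposited counts were whole numbers, and the deposited FPKM and TPM were read per transcript, with TPM used for levels between genes and FPKM in no result.

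Counts were summed per gene symbol for the fits across all genes. Counts, CPM, ratios and shares of the 9 genes use the transcript with the highest total, because transcripts of 1 gene often carried nearly the same counts. CPM values and ratios both use TMM-scaled totals. Replicates 1 and 2 of each group were summed, which gave 4 samples. Genes were filtered with filterByExpr, scaled with TMM and tested with edgeR 4.0.16 (quasi-likelihood, R 4.3.3). Calls needed a Benjamini-Hochberg p, adjusted over all genes, under 0.01 and an absolute log2 fold change of more than 1. DESeq2 1.42.0 and limma 3.58.1 were alternatives. An exact permutation test of 2 samples against 2 cannot go below p = 0.333. Ratios have exact Clopper-Pearson 95% intervals.

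The deposit served as the replicate block. On the 4 samples, the fit with the block and the comparison of deposits each left 1 residual degree of freedom. Their p-values and SE therefore rest largely on a spread estimated across all genes. The block comes from the re-used mark in the titles, which name no sequencing batch. Deviations from the group means in the sham and PNX samples of the same deposit had Pearson r = 0.699 and Spearman rho = 0.724 over 14774 genes. Genes are no independent replicates here.

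The 9 genes and all lists were chosen with earlier results of these data known. All 9 were named, and some listed genes and markers were named to show values that went either way. From the lists, genes called with the block were named, plus a fixed set (Kit, Fcer1g, Hdc, Gata2, Mitf, Mrgprb2, Il1rl1, Hpgds, Mcpt8, Kitl, Il33 and F2rl1), and the 5 genes most like Tpsb2 and Cma1, of which 1 is not reported here. Marker lists of platelets and neutrophils had 1 of 6 and 0 of 6 genes called higher, and 0 lower, with the block. In simulated counts, 200 genes were set to differ by 2 on the log2 scale. The test of PNX against sham called 185 of them with the block (16446 genes tested) and 0 without it (16421 genes tested). The comparison of deposits called 188 (16420 genes tested). For PNX against sham, the simulated deposit difference and spread were taken from the fit with the block. That simulation therefore cannot show which fit suits the real counts.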

Additional observations from a re-analysis of the deposited data

Results flagged for a closer look

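Fcer1a differed in direction between the deposits. The ratio of PNX to sham was 1.68 in the earlier deposit and 0.852 in the later one, and the exact 95% interval of the first, 1.18 to 2.43, lay above 1, whereas that of the second, 0.541 to 1.33, included it. The difference between the deposits was not tested.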

How the results depend on the processing

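Across all genes, 0 were called for PNX against sham by edgeR on the 4 samples without the block. The replicate block gave 849, the 6 libraries as separate replicates 409, both together 1104, and DESeq2 572. Alternatives chosen after seeing the data gave 727 with the block and 1 transcript per gene, 629 with the block and library size alone, and 624 with the block and DESeq2 size factors. Leaving out 1 library gave 0 to 2, the 2 without PNX replicate 3. Related mast cell genes called higher numbered 0, and 4, 2, 3, 2, 4, 2 and 2 in the order of these 7 alternatives, with 0 in each fit that left out a library. The median log2 fold change of the 7 tested genes was 2.77, and 1.76 to 3.19 when a library was left out, the lowest without PNX replicate 3. The log2 fold change of Fcer1a, 0.06 with all libraries, turned negative without sham replicate 2 (-0.04), PNX replicate 1 (-0.02) or PNX replicate 3. No other of the 7 tested genes changed sign in these fits. Log2 fold changes of single genes moved when replicate 3 of a group was left out. Without sham replicate 3 the log2 fold change was 6.51 for Tpsb2, 1.33 for Fcer1a and -0.15 for Ms4a2, and without PNX replicate 3 it was 4.81 for Tpsb2, 1.76 for Mcpt4, 3.45 for Tpsab1, -0.53 for Fcer1a and -1.27 for Ms4a2. Tpsab1 was also at 3.43 without sham replicate 1 and 4.94 without sham replicate 2. The comparison of deposits gave 550 genes, and 238 to 558 when a library was left out, the lowest without PNX replicate 1. Cpa3 no longer passed an adjusted p of 0.05 in that comparison with DESeq2, and Cma1 passed it with 6 libraries. Tpsb2 held 91.9% of the tryptase counts of PNX with 1 transcript per gene and 85.2% with summed transcripts. The causes were not tested. Sham counts of Tpsb2, Tpsab1, Mcpt1 and Mcpt2 were at most 6 per library, so small differences among them were not detectable at this depth.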

Other observations

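Genes next to the proteases in the genome were read as well. Of 11 listed genes of the chymase cluster, 4 were tested and 0 were called with or without the block or by DESeq2 (0 at an unadjusted p under 0.05 in edgeR), and 7 were at 0 in all libraries (Cma2, Mcpt9, Gzmd, Gzme, Gzmf, Gzmg and Gzmn). Gzmb, a granzyme gene of that cluster, had 242, 193 and 210 counts in sham and 190, 175 and 113 in PNX. Of 8 listed genes near the tryptases, 2 were tested and 0 were called in the same fits (0 at an unadjusted p under 0.05 in edgeR), and Prss29 and Prss33 were at 0 in all libraries.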
